A study of Mus musculus with 17 samples.

Results

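The genes of cholesterol and fatty acid synthesis were examined in MC38 tumors that had not been frozen themselves, taken from mice whose tumor on the other side had been, and in those of control mice. The set holds 32 genes, chosen by their role in the pathway with earlier results of these data known. Of these, 7 belong to the mevalonate pathway from acetyl-CoA to farnesyl diphosphate and 11 to the steps from squalene to cholesterol. The others are 6 of sterol sensing, 4 of fatty acid synthesis and 4 desaturases. All 32 were among the 21931 genes of the deposited table, and all 32 passed the filter on low counts, which 13005 genes passed. In 9 control and 8 cryoablation tumors, 0 of the 32 genes passed the test between the groups, and the largest difference in either direction was 0.53 on the log2 scale. The genes did vary between tumors of the same group, and many of them varied together.

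Cells make cholesterol from acetyl-CoA through mevalonate, isoprenoid diphosphates, squalene and a series of sterols. SREBP-2, encoded by Srebf2, is the main activator of the sterol genes, and SREBP-1, encoded by Srebf1, of the fatty acid genes. Both are held in the endoplasmic reticulum membrane with the escort protein Scap while sterols are plentiful, because Insig proteins retain Scap there. When sterols fall, Scap carries the SREBPs to the Golgi, where they are cleaved and released to the nucleus. Proliferating tumor cells use both pathways to build membranes, and adipocytes and sebaceous glands are normal tissues with a high rate of fatty acid synthesis.

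MC38 is a mouse colon cancer line, and wild-type C57BL/6J mice aged 6 to 8 weeks carried it subcutaneously on either side. In the cryoablation group (Cryo), the tumor of one side was frozen on day 7 through a probe in 2 cycles, of 20 s each by the labels where the study's methods give a longer one, and the tumor of the other side was taken 5 days after freezing. The control group (Con) carried the same tumors and was sampled at the same time point with no freezing named in its labels. RNA of whole tumors was sequenced, so that a gene's level is that of cancer cells and host cells together, and fewer cells of a type and less RNA per cell cannot be told apart.

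Total counts ranged from 14154687 to 17898672 in the control group and from 13524899 to 16847050 in the cryoablation group, and the lowest count of any member in any tumor was 39. Levels are given as CPM, with each tumor brought to 1000000 counts, after TMM scaling, which matches the bulk of genes between libraries. The label of a colon cancer line was set against 8 markers of intestinal epithelium: Cdx2, the transcription factor that defines that epithelium, had a count of 0 in every tumor, and the 8 markers summed to between 20.1 and 137 CPM. Cryoablation replicates 2, 4 and 5 stood apart from the other tumors, since their counts were shifted toward short genes. Each tumor's slope of log2 level, relative to the mean of all tumors, on log2 gene length was -0.30, -0.27 and -0.39 in these tumors and lay between -0.17 and 0.23 in the other 14. Many of the values below are therefore also given without these 3 tumors.

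The start regions of these genes are known for elements bound by SREBPs and their partners, and the promoters of 3 genes are printed here because much of what follows concerns their levels: Hmgcs1, whose product makes the precursor of mevalonate, Insig1, a sterol sensor and itself an SREBP target, and Idi1, an isomerase of the isoprenoid steps. Each is the 250 bases before the RefSeq start site in build GRCm38.p6, on the plus strand. Capitals mark matches on either strand to CCAAT, the element bound by NF-Y, and to TCACNCCAC, a form of the sterol regulatory element bound by SREBPs. Hmgcs1 lies at chr13:119690101-119690350, Insig1 at chr5:28071162-28071411 and Idi1 at chr13:8885356-8885605.
Hmgcs1: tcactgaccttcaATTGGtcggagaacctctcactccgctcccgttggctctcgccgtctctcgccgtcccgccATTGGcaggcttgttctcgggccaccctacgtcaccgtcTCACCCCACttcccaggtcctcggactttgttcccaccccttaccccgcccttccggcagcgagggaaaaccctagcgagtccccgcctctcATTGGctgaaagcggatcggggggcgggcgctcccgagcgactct
Insig1: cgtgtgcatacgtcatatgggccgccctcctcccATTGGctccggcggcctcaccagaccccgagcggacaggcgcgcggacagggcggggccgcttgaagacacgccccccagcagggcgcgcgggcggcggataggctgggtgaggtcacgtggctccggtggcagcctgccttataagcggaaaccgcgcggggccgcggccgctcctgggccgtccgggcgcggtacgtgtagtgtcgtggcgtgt
Idi1: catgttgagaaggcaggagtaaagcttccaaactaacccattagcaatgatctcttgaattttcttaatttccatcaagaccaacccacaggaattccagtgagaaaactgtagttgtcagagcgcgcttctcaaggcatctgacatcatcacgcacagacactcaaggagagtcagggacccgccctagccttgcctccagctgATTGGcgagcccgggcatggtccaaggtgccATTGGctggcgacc
The promoter of Hmgcs1 held TCACCCCAC 137 bases before the start, and 3 matches to CCAAT at 237, 176 and 45 bases. That of Insig1 held 1 match to CCAAT at 216 bases, and that of Idi1 held 2, at 45 and 14 bases. Insig1 and Idi1 were chosen for display after their values were seen.

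Promoters of 25 of the 32 members were searched. Promoters on chromosome 18, where Stard4 lies, were left out for the members but not for the shares of all promoters. CCAAT occurred in 19 of the 25 (76.0%), against 33.8% of all 32851 promoters in the table and 35.1% of the promoters of genes tested here. The E-box CACGTG occurred in 5 (20.0%), those of Dhcr7, Hsd17b7, Insig1, Sc5d and Scap, against 6.02% of all promoters and 8.00% of those of genes tested. The GC box GGGCGG occurred in 21 (84.0%), against 32.7% of all promoters and 56.2% of those of genes tested. TCACNCCAC occurred only in Hmgcs1 among the 25, against 1.05% of all promoters. Both strands were searched, and the printed matches do not overlap each other. A member counted when any of its promoters matched (33 promoters for the 25 members), whereas the other shares are of single promoters. Members with more than 1 promoter thus had more chances to match. These shares describe the letters of the windows and were not tested.

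The set was well expressed in the tumors. By mean CPM per kilobase of listed gene length over all 17 tumors, 26 of the 32 members lay above the median of all genes tested and 20 above the 75th percentile. Scd2, one of the desaturases that place the first double bond in a saturated fatty acid, had the highest level per length, 90.3 CPM per kilobase. It was followed by Cyp51, the lanosterol demethylase, at 52.9, Insig1 at 50.4, Acly, which makes cytosolic acetyl-CoA from citrate, at 48.3, and Hmgcs1 and Scd1 at 44.8 each. The lowest were Tm7sf2, a sterol reductase, at 3.41, Acaca, the acetyl-CoA carboxylase that commits carbon to fatty acids, at 2.93, and Fdps, the farnesyl diphosphate synthase, at 1.59 CPM per kilobase. Transcripts of 5 other genes in GENCODE M21, 4 of them processed pseudogenes, shared at least 300 bases with Fdps at 95% identity or more, and its counts are uncertain. Idi1, Acat2, Fdft1, Acaca, Elovl6, Hmgcs1 and Scd2 shared such stretches with between 1 and 3 other genes each and carry the same uncertainty.

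**Figure D1:**
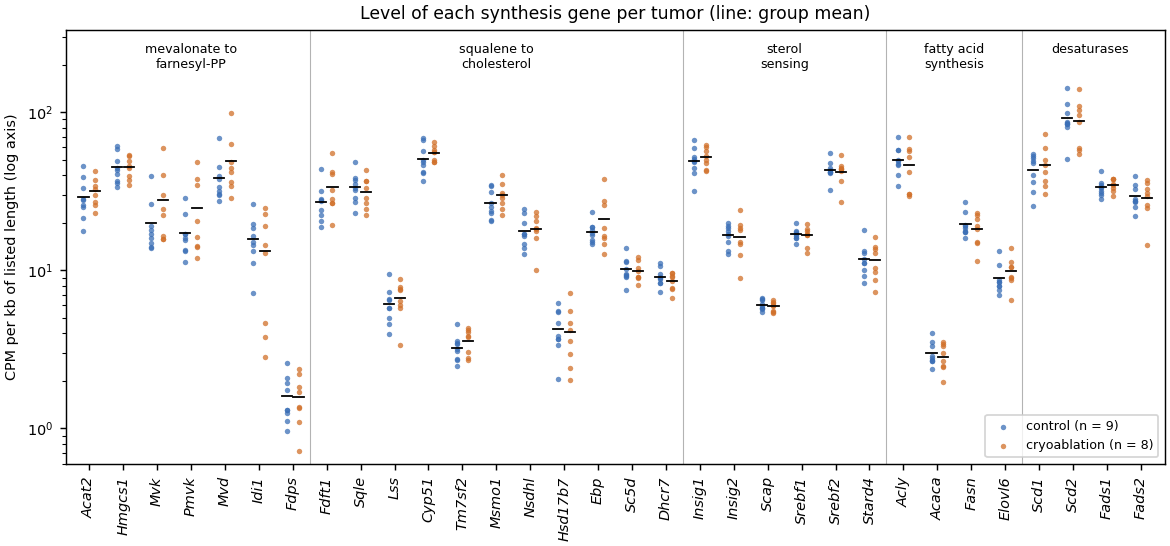
Level of each of the 32 genes per tumor, in CPM per kilobase of listed length on a log axis, with the control tumors on the left and the cryoablation tumors on the right of each gene and a line at each group's mean. Levels run from 1.59 CPM per kilobase for Fdps to 90.3 for Scd2 as means over all tumors. The groups overlap for all 32 genes, and 0% of all genes tested have groups that do not overlap.

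The comparison of cryoablation with control asks whether freezing one tumor was followed by a change of these genes in the distant one. By edgeR's quasi-likelihood test with Benjamini-Hochberg adjustment, 0 of 32 members had an adjusted p under 0.05, where 0% of the 13005 genes tested did. At an unadjusted edgeR p under 0.05, 0 of 32 members were called, against 4.91% of all genes. With a log2 fold change beyond 1 in either direction required as well as that p, 0 of 32 were called, against 0.492% of all genes. DESeq2 also called 0 members at either p, against 6.77% of all genes at its unadjusted p. By limma's voom, Mvk alone was called at the unadjusted p, against 10.1% of all genes. The smallest p by edgeR was 0.0703 before and 0.728 after adjustment, for Pmvk, and the smallest p of the exact permutation test was 0.165, for Mvk. Without control replicate 5, Fdft1, Mvd, Mvk and Pmvk had an unadjusted edgeR p under 0.05, and the share of all genes was 9.61%. Without cryoablation replicate 6, Fdft1 and Pmvk did, where 9.95% of all genes did, and without cryoablation replicate 3 or 7 Pmvk alone did, where 10.6% and 10.1% of all genes did.

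The log2 fold change of cryoablation over control was above 0 for 15 members and below 0 for 17, with a median of -0.007, and all genes tested had a median of -0.009 with 48.0% above 0. The count above 0 was 24 after correction for gene length, 25 without control replicate 6 and 23 without cryoablation replicate 2. The 95% interval of the difference held 0 for all 32 members. It lay within 0.5 of 0 on the log2 scale for 22 members and within 1 for 29, the exceptions being Mvk, Pmvk and Idi1. The intervals of these 3 genes reached 1.08, 1.11 and -1.06.

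**Figure D2:**
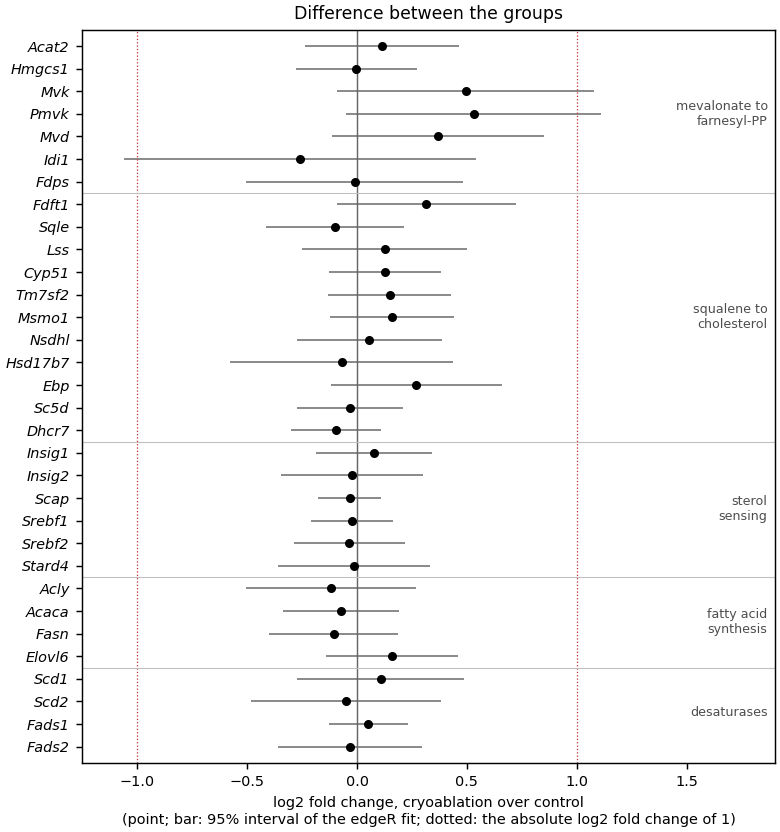
Log2 fold change of cryoablation over control for each of the 32 genes, with points for the estimate of the edgeR fit and bars for its 95% interval, and dotted lines at -1 and 1. Every bar crosses 0, the estimates lie between -0.26 for Idi1 and 0.53 for Pmvk, and the bars of 29 genes stay between the dotted lines.

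Among the 7 genes from acetyl-CoA to farnesyl diphosphate, 4 had estimates above 0 and 3 below, with a median of 0.11. Pmvk, the phosphomevalonate kinase, had between 19.3 and 48.9 CPM (median 27.6) in the control tumors and between 20.6 and 83.5 (median 31.7) in the cryoablation tumors. The means were 29.4 ± 9.13 CPM (SD, n = 9) and 42.5 ± 23.6 CPM (SD, n = 8), for a log2 fold change of 0.53 with an SE of 0.28. The 3 highest of the 17 values were those of cryoablation replicates 5, 4 and 2, and the other 5 cryoablation tumors lay within the control range. Mvk, the mevalonate kinase that acts just before it, ranged from 37.1 to 106 CPM (median 45.6) in the control and from 42.2 to 160 (median 62.4) after cryoablation. Its log2 fold change was 0.49 with an SE of 0.28 and an unadjusted edgeR p of 0.093, with 5 of 8 cryoablation values over the median of the control. Without cryoablation replicates 2, 4 and 5, the estimates were -0.16 for Pmvk and -0.08 for Mvk, on the other side of 0.

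Idi1 turns isopentenyl diphosphate into the isomer with which chain growth begins. It had between 25.4 and 92.0 CPM (median 52.6) in the control and between 10.0 and 87.0 (median 47.9) in the cryoablation group, with means of 55.4 ± 19.1 CPM (SD, n = 9) and 46.2 ± 30.6 CPM (SD, n = 8). The log2 fold change was -0.26 with an SE of 0.38. The 3 lowest of the 17 values, 10.0, 13.3 and 16.3 CPM, were those of cryoablation replicates 4, 5 and 2, and without these tumors the estimate was 0.25. The SD of log2 CPM within the groups was 0.93 for Idi1, above that of 96.4% of all genes tested and the highest in the set.

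Hmgcs1, the synthase at the entry of the pathway, was close to equal in the groups, at 206 ± 45.3 CPM (SD, n = 9) in the control and 206 ± 32.8 CPM (SD, n = 8) in the cryoablation tumors, and its 95% interval ran from -0.28 to 0.27. Mvd, the decarboxylase that yields isopentenyl diphosphate, had an estimate of 0.37 with an SE of 0.23, with 7 of 8 cryoablation values over the median of the control. It was -0.03 without cryoablation replicates 2, 4 and 5. Acat2, the thiolase that joins acetyl-CoA units, had an estimate of 0.11 and Fdps one of -0.01.

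Of the 11 genes from squalene to cholesterol, 7 had estimates above 0 and 4 below, with a median of 0.13, between -0.10 and 0.32. Fdft1, the squalene synthase that draws farnesyl diphosphate into sterols, ranged from 77.6 to 181 CPM (median 113) in the control and from 79.5 to 229 (median 124) in the cryoablation tumors. Its log2 fold change was 0.32 with an SE of 0.19, and its exact permutation p was 0.179. Ebp, the sterol isomerase, had 33.8 to 54.0 CPM in the control and 29.4 to 87.4 in the cryoablation tumors. Its means were 40.6 ± 6.13 CPM (SD, n = 9) in the control and 49.0 ± 19.7 CPM (SD, n = 8) after cryoablation, where its SD was larger and its median, 40.4 CPM, close to the control median of 40.0. The estimate for Ebp was 0.27 with an SE of 0.19. Both estimates crossed 0 without cryoablation replicates 2, 4 and 5, to -0.04 for Fdft1 and -0.17 for Ebp.

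Hsd17b7, the ketosteroid reductase of the pathway, had the widest spread of these 11 genes, with an SD of 0.54 in log2 CPM within the groups. It lay between 10.5 and 31.8 CPM (median 19.7) in the control and between 10.3 and 36.8 (median 19.8) in the cryoablation tumors, and the log2 fold change was -0.07. Cyp51 was the one member for which the 8 cryoablation values all exceeded the control median of 212 CPM. Its groups overlapped, with 162 to 303 CPM in the control and 213 to 286 in the cryoablation tumors, and the estimate was 0.13 with an SE of 0.12. The remaining genes of this stretch had estimates of -0.10 for Sqle, the squalene epoxidase, 0.13 for Lss, the lanosterol synthase, and 0.15 for Tm7sf2. For Msmo1 and Nsdhl, which act in the removal of the C4 methyl groups, they were 0.16 and 0.06. For Sc5d, the sterol desaturase, and Dhcr7, the reductase of the last steps, they were -0.03 and -0.10.

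The sterol sensors and regulators had the smallest spread of the role groups, with a median SD of log2 CPM within the groups of 0.26 against 0.34 for all 32 members. Of their estimates 1 was above 0 and 5 below, with a median of -0.02. Scap, the escort protein, ranged from 40.8 to 49.4 CPM (median 44.1) in the control and from 40.1 to 48.1 (median 44.7) in the cryoablation tumors. Its SD of log2 CPM within the groups was 0.10, below that of all but 1.32% of genes tested. After correction for gene length the SD was 0.19, below that of all but 17.8% of genes tested. The 95% interval of the difference for Scap ran from -0.18 to 0.11. Srebf2 had 231 to 398 CPM (median 301) in the control and 193 to 383 (median 314) in the cryoablation group, with a log2 fold change of -0.04 and an SE of 0.12. Srebf1, counted here over all of its transcripts, had an estimate of -0.02 with an SE of 0.09.

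Insig1 ranged from 97.8 to 205 CPM (median 151) in the control and from 132 to 191 (median 159) in the cryoablation tumors, and its log2 fold change was 0.08 with an SE of 0.13. Insig2, the second Insig gene, ranged from 44.1 to 68.9 CPM (median 59.4) in the control and from 31.2 to 83.2 (median 57.4) in the cryoablation tumors, with a log2 fold change of -0.02. The cryoablation tumors thus spanned a wider range for Insig2 and a narrower one for Insig1. Stard4, a carrier of cholesterol between membranes, had 46.3 to 100 CPM (median 62.5) in the control and 40.9 to 90.4 (median 65.3) in the cryoablation group, with a log2 fold change of -0.01.

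In fatty acid synthesis, 1 of 4 estimates was above 0 and 3 below, with a median of -0.09. Acly had 181 to 366 CPM (median 258) in the control and 155 to 366 (median 249) in the cryoablation tumors, and its log2 fold change was -0.12 with an SE of 0.18. Fasn, the synthase that builds palmitate, had 175 to 298 CPM (median 203) in the control and 126 to 253 (median 204) in the cryoablation tumors, with a log2 fold change of -0.11 and an SE of 0.14. The estimate for Acaca was -0.07. Elovl6, which lengthens palmitate to stearate, was the gene above 0, at 44.7 to 85.1 CPM (median 54.2) in the control and 42.0 to 89.5 (median 62.7) after cryoablation. Its log2 fold change was 0.16 with an SE of 0.14, and 7 of 8 cryoablation values exceeded the control median.

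The desaturases had estimates close to 0, between -0.05 and 0.11. Scd1 ranged from 126 to 268 CPM (median 234) in the control and from 148 to 358 (median 216) in the cryoablation tumors, so that its mean was higher and its median lower after cryoablation, and the log2 fold change was 0.11 with an SE of 0.18. Without cryoablation replicate 3, which had the highest Scd1, it was -0.02. Scd2, its neighbor on chromosome 19, ranged from 275 to 779 CPM (median 464) in the control and from 299.6 to 771 (median 499) in the cryoablation tumors, with a log2 fold change of -0.05 and an SE of 0.21. Fads1, the delta-5 desaturase of polyunsaturated fatty acids, had an SD of 0.15, at 136 to 205 CPM (median 160) in the control and 142 to 183 (median 168) in the cryoablation group, and its 95% interval ran from -0.13 to 0.23. Fads2, the delta-6 desaturase, had an estimate of -0.03.

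The tumors differed among themselves within both groups. Control replicate 6 had the highest value of all 17 tumors for 18 of the 32 members, whereas 5.94% of all genes tested were highest there. Its members lay, at the median, 0.41 above the mean of all tumors on the log2 scale. Control replicate 4 had the lowest value for 7 members and a median of -0.31, and control replicate 1 the lowest for 5 and a median of -0.25, where 6.51% and 5.05% of all genes were lowest. In the cryoablation group, replicate 7 had a median of 0.31 and replicate 4 had the lowest value for 10 members, where it was also lowest for 17.4% of all genes. Cryoablation replicate 5 was highest for 5 members and lowest for 4, and 21.7% of all genes were highest and 21.7% lowest there. Control tumors thus held both the highest and the lowest median of the set.

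**Figure D3:**
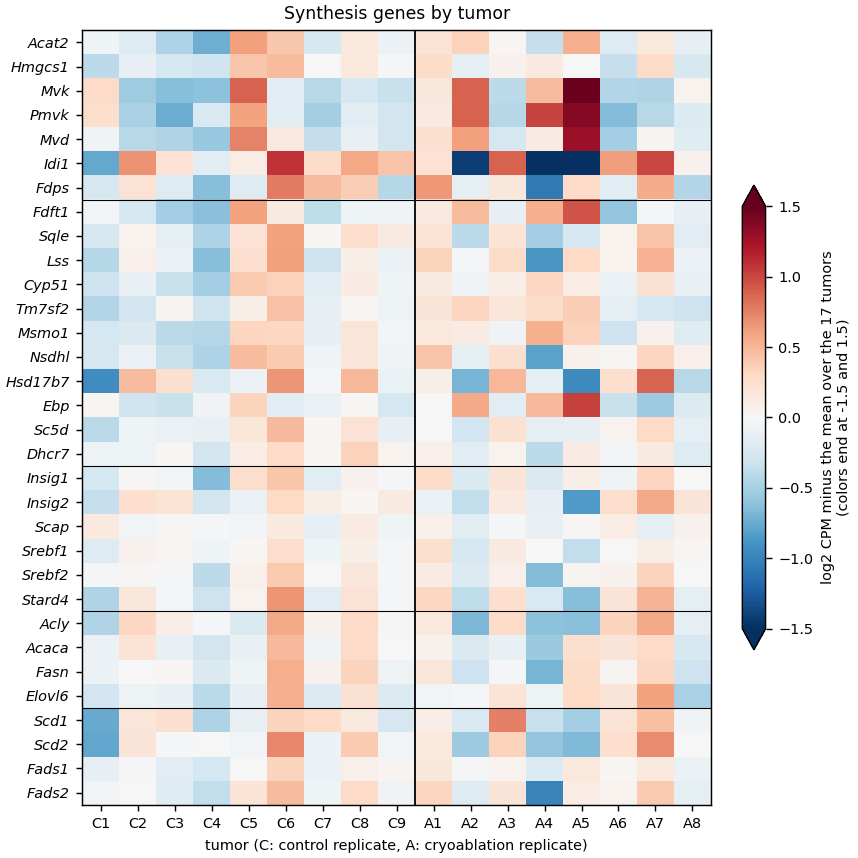
Log2 CPM of the 32 genes in each tumor minus the mean over the 17 tumors, with genes in rows by role and tumors in columns, control on the left (C) and cryoablation on the right (A). Control replicate 6 is highest for 18 of 32 genes, and in cryoablation replicates 2, 4 and 5 Mvk, Pmvk and Ebp are high while Idi1 and Acly are low.

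With the group means removed, the median Pearson correlation of log2 CPM over the 496 pairs of members was 0.465 across the 17 tumors, and 233 pairs exceeded 0.5. Over all 84558510 pairs of genes tested the median was -0.001. The median was 0.460 among the mevalonate genes, 0.432 from squalene to cholesterol, 0.429 among the sterol sensors, 0.706 among the 4 fatty acid genes and 0.587 among the desaturases. Sterol enzymes paired with fatty acid enzymes and desaturases had a median of 0.445. After correction for gene length the median over all pairs of members was 0.497, against 0.0015 for all genes, and that of the fatty acid genes was 0.415. These values are descriptions over tumors that share libraries across all genes, and pairs that share a gene are not independent.

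Relations across the 17 tumors were tested for 12 pairs of genes with 100000 permutations, and p was adjusted over the 12. Hmgcs1 followed Insig1 (r = 0.741, permutation p = 0.00057, adjusted p = 0.00228; rho = 0.787, adjusted p = 0.00168). It was 0.637 without the 2 tumors farthest from the median of Hmgcs1, 0.826 within the control and 0.584 within the cryoablation tumors. Hmgcs1 also followed Sqle (r = 0.654, permutation p = 0.00455, adjusted p = 0.0123; rho = 0.654, adjusted p = 0.0112), with r = 0.512 without the 2 farthest tumors, 0.896 within the control and 0.360 within the cryoablation tumors. An enzyme at the entry of the pathway was thus paired with one further along it and with a sensor of its end product.

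Srebf2 and Hmgcs1 gave r = 0.413 (permutation p = 0.0996, adjusted p = 0.149) and rho = 0.672 (adjusted p = 0.00972). The r was 0.711 without the 2 farthest tumors, cryoablation replicate 4 and control replicate 4, and 0.714 without cryoablation replicates 2, 4 and 5. It was 0.750 within the control and 0.105 within the cryoablation tumors, and the difference between these was not tested. Srebf1 and Fasn gave r = 0.320 (permutation p = 0.211, adjusted p = 0.281; rho = 0.480, adjusted p = 0.0787). It was 0.553 without the 2 farthest tumors and 0.653 (adjusted permutation p = 0.0195) without cryoablation replicates 2, 4 and 5, but 0.034 after correction for gene length. It was 0.807 within the control and 0.067 within the cryoablation tumors. For both activators the correlation was higher within the control than within the cryoablation tumors, which was not tested either.

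The desaturases paired closely. For Scd1 and Scd2 this holds with the limit that a Scd1 transcript shares 623 bases with Scd2 at 95% identity or more, so that reads of one may have been counted on the other. Scd1 and Scd2 gave r = 0.805 (permutation p = 0.00016, adjusted p = 0.00096; rho = 0.748, adjusted p = 0.00388), 0.779 without the 2 farthest tumors, 0.744 within the control and 0.895 within the cryoablation tumors. Fads1 and Fads2, also on chromosome 19, gave r = 0.813 (permutation p = 0.0001, adjusted p = 0.00096; rho = 0.890, adjusted p = 0.00012), 0.782 without the 2 farthest tumors, 0.925 within the control and 0.904 within the cryoablation tumors. After correction for gene length it was 0.531 with an adjusted permutation p of 0.0738. Fasn and Acly gave r = 0.639 (permutation p = 0.00513, adjusted p = 0.0123; rho = 0.674, adjusted p = 0.00972), with 0.438 without the 2 farthest tumors, 0.763 within the control and 0.555 within the cryoablation tumors. After correction for gene length that r was -0.03. Fasn and Scd1 gave r = 0.430 (permutation p = 0.086, adjusted p = 0.147; rho = 0.544, adjusted p = 0.0444), with 0.321 without the 2 farthest tumors, 0.661 within the control and 0.343 within the cryoablation tumors.

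Idi1 and Fdft1, which act on either side of farnesyl diphosphate, ran in opposite directions, with r = -0.604 (permutation p = 0.0102, adjusted p = 0.0203) and rho = -0.333 (adjusted p = 0.256). This relation rested on the cryoablation tumors that stood apart. It was -0.279 without cryoablation replicates 4 and 5, 0.057 without replicates 2, 4 and 5, 0.132 within the control and -0.842 within the cryoablation tumors.

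**Figure D4:**
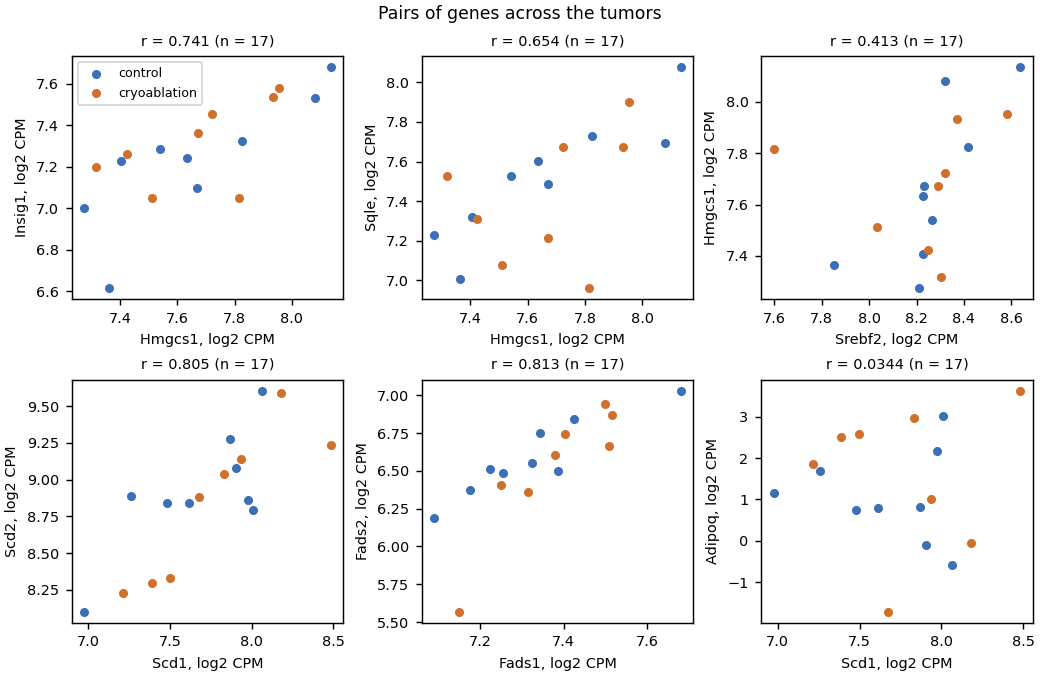
Log2 CPM of 6 pairs of genes in the 17 tumors, control and cryoablation in different colors, with Pearson's r over all tumors above each panel. Hmgcs1 with Insig1 (0.741), Scd1 with Scd2 (0.805) and Fads1 with Fads2 (0.813) rise along a line in both groups, whereas Scd1 with Adipoq (0.034) shows no trend.

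Several members that stood out in cryoablation replicates 2, 4 and 5 also varied with the length slope among the other tumors. Across the 17 tumors, the correlation of log2 CPM with the length slope was -0.943 for Pmvk, -0.936 for Ebp, -0.907 for Mvk, -0.778 for Fdft1 and -0.751 for Mvd. In the opposite direction it was 0.949 for Acly, 0.919 for Idi1, 0.879 for Insig2, 0.856 for Scd2 and 0.835 for Hsd17b7, and it was 0.035 for Hmgcs1. Without the 3 tumors it was -0.827 for Pmvk, -0.826 for Ebp, 0.895 for Acly and 0.810 for Idi1, but -0.468 for Fdft1 and -0.489 for Mvd. The sign did not follow a member's own length in each case, since Idi1 and Insig2, listed with 3505 and 3473 bases, are shorter than the median gene tested (4467 bases) and were low where counts were shifted toward short genes. Within the control tumors it was -0.822 for Pmvk and 0.897 for Acly, and within the cryoablation tumors -0.976 and 0.969. These are descriptions with no p, since the slope was computed from the same libraries. In all, 5 members had a correlation under -0.5 and 11 over 0.5, where 31.0% and 35.3% of all genes tested did.

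**Figure D5:**
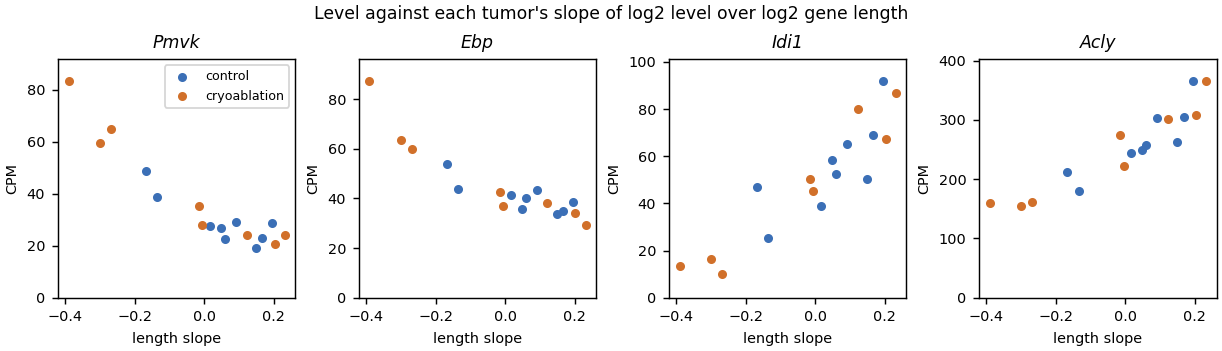
CPM of Pmvk, Ebp, Idi1 and Acly in each tumor against the tumor's slope of log2 level on log2 gene length, control and cryoablation in different colors. Pmvk and Ebp fall and Idi1 and Acly rise with the slope, and the 3 tumors at the left, with slopes between -0.39 and -0.27, are cryoablation replicates 5, 2 and 4.

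The 6 members of at most 3000 bases, Acat2, Ebp, Mvd, Mvk, Nsdhl and Pmvk, all had estimates above 0, with a median of 0.32, and the 3616 genes of that length had a median of 0.16. Of the 26 longer members, 9 had estimates above 0, with a median of -0.02, and longer genes in all had -0.05. Spearman's rho of log2 fold change with listed length was -0.505 across the 32 members and -0.383 across all genes tested, which are not independent replicates. With gene length corrected in the fit, the estimates were 0.29 for Pmvk, 0.40 for Mvk, 0.14 for Ebp and -0.24 for Idi1, and 0 members had an unadjusted p under 0.05.

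Other genes of the pathway were taken as 42 genes in 5 lists, and all 42 passed the filter. By edgeR's quasi-likelihood test, 0 had an adjusted p under 0.05, and 2 had an unadjusted p under 0.05, 1 in each direction, a share close to the 4.91% of all genes. The estimates were above 0 for 21 and below 0 for 21, with a median of -0.01. Of the genes that act on SREBP cleavage or with Insig, 1 of 7 estimates was above 0 (median -0.15), but 5 of 7 (median 0.05) without cryoablation replicates 2, 4 and 5, and Mbtps1, the protease that makes the first cut, was at 0.0006. Of the other sterol and isoprenoid enzymes, 7 of 11 were above 0 (median 0.05), of the suppliers of acetyl-CoA and NADPH 5 of 6 (median 0.06), of the other fatty acid enzymes 6 of 11 (median 0.02), and of the LXR and sterol efflux genes 2 of 7 (median -0.18).

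Pggt1b, the subunit of the enzyme that attaches geranylgeranyl groups to proteins, had 66.9 to 94.3 CPM (median 75.9) in the control and 76.1 to 142 (median 87.1) in the cryoablation tumors. Its log2 fold change was 0.35 with an SE of 0.12, an unadjusted edgeR p of 0.0105 and an adjusted p of 0.728, and the 8 cryoablation values all exceeded the control median. Its correlation with the length slope was -0.820, and without cryoablation replicates 2, 4 and 5 its log2 fold change was 0.075 with an SE of 0.079. Abcg1, a sterol exporter and LXR target, had 9.68 to 46.3 CPM (median 15.8) in the control and 8.74 to 18.5 (median 11.8) in the cryoablation tumors. The log2 fold change was -0.63 with an SE of 0.27, an unadjusted edgeR p of 0.0333 and an adjusted p of 0.728, and 7 of 8 cryoablation values were under the control median. Without the same 3 tumors that of Abcg1 was -0.60 with an unadjusted edgeR p of 0.0992. Neither gene passed after adjustment.

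Markers of other cell types that make or store lipid were set beside these values. The 9 adipocyte markers, among them Adipoq and Plin1, summed to between 19.0 and 122 CPM (median 40.5) in the control and between 17.3 and 222 (median 146) in the cryoablation tumors. Of the 8 that passed the filter, 8 had estimates above 0, with a median of 0.93, 3 had an unadjusted edgeR p under 0.05 and 0 an adjusted one, beside 48.0% above 0 and 4.91% under that p among all genes. Without cryoablation replicates 2, 4 and 5, again 8 were above 0, with a median of 0.75, and 0 had an unadjusted p under 0.05. Their relation to the synthesis genes did not pass the test, with r = -0.205 for Fasn and Adipoq (permutation p = 0.429, adjusted p = 0.468; rho = -0.110, adjusted p = 0.735) and r = 0.034 for Scd1 and Adipoq (permutation p = 0.895, adjusted p = 0.895; rho = -0.020, adjusted p = 0.944). The r was 0.121 and -0.265 without the 2 farthest tumors, -0.439 and -0.064 within the control and -0.040 and 0.061 within the cryoablation tumors. Of the 10 markers of sebaceous gland and epidermis, Awat1, Elovl3 and Lor had at most 3 counts in every tumor, and the 10 summed to between 184 and 446 CPM in the control and between 207 and 668 in the cryoablation tumors, nearly all from Krt14. Of the 5 that passed the filter, 5 had estimates above 0, with a median of 0.18. An unadjusted edgeR p under 0.05 was found for 1 of them, beside the 4.91% of all genes. Without cryoablation replicates 2, 4 and 5, 1 of 5 was above 0, with a median of -0.35.

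Macrophage markers summed to between 944 and 2621 CPM in the control and between 711 and 3428 in the cryoablation tumors. Of their 7 estimates, 3 were above 0, with a median of -0.02. There was 1 unadjusted edgeR p under 0.05, where 4.91% of all genes had one. Without cryoablation replicates 2, 4 and 5, 0 of 7 were above 0, with a median of -0.37. Fibroblast markers summed to between 7247 and 13143 CPM and between 4898 and 9799 CPM, with 1 of 6 estimates above 0. Without the same 3 tumors, 3 of 6 were above 0. Skeletal muscle markers reached 118 CPM in the control and 48.1 in the cryoablation group, and Tnnc2 had a count of 0 in every tumor. Proliferation markers summed to between 1233 and 1992 CPM and between 1544 and 1915 CPM, and Sqle with Mki67 gave r = 0.274 (permutation p = 0.287, adjusted p = 0.345; rho = 0.196, adjusted p = 0.538), with 0.111 without the 2 farthest tumors, 0.524 without cryoablation replicates 2, 4 and 5 (adjusted permutation p = 0.0796), 0.680 within the control and -0.170 within the cryoablation tumors. In none of these lists did a marker have an adjusted edgeR p under 0.05, and the part of these cells in the levels of the synthesis genes was not tested.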

How the data were processed

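RNA sequencing of 9 control and 8 cryoablation tumors was analysed, and groups were taken from the sample labels. The paper's text gives the sizes of the groups the other way round; if the labels had been exchanged, the sign of every difference would turn. The authors deposited 1 table with the count of reads on each of 21931 genes in each tumor, not normalized, and with FPKM, equal to the count per kilobase of listed length and per 1000000 counts for 372827 of 372827 values within a relative tolerance of 0.001, which were not used further. All columns were assigned to a sample (0 were left over). The submitters' processing notes name GRCm38 and mm10; the aligner, the counting program and its use of strand are not given in the sources used here. The table's gene positions equal those of GENCODE M21 for 512 of 21827 shared genes, and none is printed. The labels do not name the mouse of each tumor, so p values measure the spread between these samples.

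The 32 members, the 42 related genes, the markers and the 12 pairs were chosen with earlier results of these data known. All members are named; ranges per group are given for the 2 with the smallest p, the 2 with the largest fold change and the 2 with the largest SD within groups in each role group, and for Cyp51, added after its values were seen. Among related genes, those with an unadjusted p under 0.05 are named, and Mbtps1, Plin1, Krt14 and the correlations with the length slope were picked for mention after the values were seen. Promoters shown were to be those with a match to the sterol element, and 2 were added.

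Counts were tested with edgeR 4.0.16 in R 4.3.3 (TMM, filterByExpr by group, quasi-likelihood F test, group as the only term), with Benjamini-Hochberg adjustment over 13005 genes. Total counts lay between 13524899 and 17898672 per tumor, and intervals of 95% come from the fit. Log2 CPM with a prior count of 2 were also compared between the groups by exact permutation (two-sided, 24310 assignments of the tumors), whose smallest p is 4.11e-05, adjusted over all genes. SDs and correlations used the same log2 CPM. Alternatives were DESeq2 1.42.0, limma 3.58.1 voom with sample weights, upper-quartile normalization, no filter, offsets for gene length (natural splines with 4 degrees of freedom per tumor), a replicate block, a prior count of 0.5, and leaving out each tumor or cryoablation replicates 2, 4 and 5, the last added for related genes and marker lists after the data were seen. The scripts were tested on simulated data. Promoters are from RefSeq, build GRCm38.p6.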

Additional observations from a re-analysis of the deposited data

Results flagged for a closer look

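In 3 of the 64 groups of values of the members (32 genes in 2 groups), the lowest tumor lay far from the others by Dixon's criterion, and chance alone flags about 1 in 20 groups. All 3 were the same tumor, cryoablation replicate 4: Lss had 36.3 CPM there, Nsdhl 28.6 CPM and Fads2 47.3 CPM, against cryoablation medians of 74.8, 52.5 and 99.2 CPM. Without this tumor the log2 fold changes were 0.22 for Lss, 0.15 for Nsdhl and 0.07 for Fads2, in place of 0.13, 0.06 and -0.03. This tumor was the lowest of the 17 for 10 of the 32 members, and for 17.4% of all genes tested.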

How the results depend on the processing

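The counts of members with an adjusted p under 0.05 and of members past the fold threshold were 0 under every alternative run. The smallest adjusted p of any member lay between 0.465 and 0.990 over the alternatives of the count test. With limma's voom, 1 member had an unadjusted p under 0.05, against 10.1% of all genes. With each tumor left out in turn, that count ranged from 0 to 4 and the median log2 fold change of the members from -0.04 to 0.09. Of the 32 estimates, 6 kept their sign under all alternatives, with or without single tumors. None of the estimates that changed sign had passed the test, and the cause was not tested. The log2 fold changes on the other side of 0 were 0.0031 for Hmgcs1 with DESeq2. With voom they were 0.030 for Scap, 0.061 for Srebf1, 0.0041 for Srebf2, 0.059 for Stard4, -0.028 for Elovl6 and 0.032 for Fads2. With gene length corrected they were 0.046 for Hmgcs1, 0.017 for Fdps, 0.018 for Sc5d, 0.069 for Scap, 0.048 for Srebf1, 0.048 for Srebf2, 0.042 for Stard4, 0.078 for Acaca and 0.024 for Fasn. Without cryoablation replicates 2, 4 and 5 they were -0.077 for Mvk, -0.16 for Pmvk, -0.028 for Mvd, 0.25 for Idi1, 0.12 for Fdps, -0.040 for Fdft1, 0.074 for Sqle, -0.0093 for Tm7sf2, -0.014 for Msmo1, 0.19 for Hsd17b7, -0.17 for Ebp, 0.058 for Sc5d, 0.18 for Insig2, 0.076 for Srebf1, 0.084 for Srebf2, 0.19 for Stard4, 0.15 for Acly, 0.22 for Scd2 and 0.12 for Fads2. Upper-quartile normalization and no filter on low counts changed no sign. With single tumors left out, the ranges that crossed 0 were -0.051 to 0.056 for Hmgcs1, -0.13 to 0.098 for Fdps, -0.012 to 0.15 for Nsdhl, -0.24 to 0.029 for Hsd17b7, -0.088 to 0.026 for Sc5d, -0.13 to 0.066 for Insig2, -0.070 to 0.021 for Srebf1, -0.098 to 0.036 for Srebf2, -0.10 to 0.077 for Stard4, -0.016 to 0.18 for Scd1, -0.18 to 0.045 for Scd2 and -0.099 to 0.068 for Fads2.

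Same-numbered tumors of the groups did not all deviate together (correlations between -0.51 and 0.64, over 0.1 in 4 of 8 numbers). Whether the numbers pair the tumors was not tested. With a replicate block, 0 members had an unadjusted p under 0.05 and 446 of all genes did, in place of 639, and the estimate for Hmgcs1 was 0.0080. Of the correlations, that of Fasn with Acly was -0.028 and that of Fasn with Scd1 -0.10 with gene length corrected, and that of Idi1 with Fdft1 was 0.057 without cryoablation replicates 2, 4 and 5. Across all genes, 881 had an unadjusted p under 0.05 with DESeq2, 1312 with voom, 707 with gene length corrected, 992 of 17819 with no filter and 325 without those tumors. The number of tumors and their spread limit what could be seen: the median member's 95% interval reached 0.326 on the log2 scale to either side.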
